A study of Mus musculus with 6 samples.

Results

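Among the RNA of sorted mouse lung tumour cells, 10 genes of the TGF-beta pathway were examined: the ligand genes Tgfb1, Tgfb2, Tgfb3 and Inhba, the receptor genes Tgfbr1, Tgfbr2 and Tgfbr3, and the Smad genes Smad2, Smad3 and Smad7. They were chosen by name, and every probe set that the platform annotation assigns to one of these genes alone was taken, which gave 24 of the 45037 probe sets tested. Each gene was also read once at its brightest probe set, the one with the highest mean over all arrays, as were all 18193 named genes. Values are log2 probe set values as deposited, and a difference is always CD133 high minus CD133 low on that scale.

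The samples came from tumours of 344SQ, a lung adenocarcinoma line of a mouse with the alleles KrasLA1/+ and p53R172HdelG/+, grown under the skin of syngeneic mice, in which the line spreads widely. Flow cytometry divided the tumour cells by CD133, giving 3 arrays of CD133 high cells and 3 of CD133 low cells, which share the line, its alleles and the site of growth. CD133 is the surface glycoprotein encoded by Prom1. The line stands for 1 tumour genotype, no label states that arrays are from different animals or sorts, and p-values therefore measure only the spread between these arrays, which may be technical. Of 12 epithelial markers of the tumour cells 0 passed the test in limma (1 at an unadjusted p under 0.05), with 5 positive and 7 negative differences, a median of −0.14, and summed linear values of 20225 to 27877 on the CD133 high arrays and 22391 to 25550 on the CD133 low arrays. The 4 with the smallest p were the claudins Cldn7 (−0.73, SE 0.21) and Cldn4 (−0.42, SE 0.19), lower in every CD133 high array, the keratin Krt8 (0.41, SE 0.18), higher in every one, and the keratin Krt18 (−0.42, SE 0.32). Without CD133 high replicate 1, an array described below, the list median was −0.34, the surface protein Epcam rose (1 of 12, against 11.7% of all genes), and Krt18 and the claudin Cldn3 fell (2 of 12, against 14.6%). Esrp1, an epithelial splicing factor on this list, was listed at 0 on 5 of the 6 arrays.

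TGF-beta ligands are secreted in a latent form, released in the matrix, and bound by the type II receptor, encoded by Tgfbr2, which then phosphorylates the type I receptor, encoded by Tgfbr1. The active type I receptor phosphorylates Smad2 and Smad3, which enter the nucleus with Smad4 and regulate target genes, while Smad7 is induced as a feedback inhibitor that blocks the type I receptor. In carcinomas the pathway is known both as a brake on epithelial growth and as a driver of invasion and of the epithelial to mesenchymal transition.

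The CD133 high arrays were not alike, which touches every result here. CD133 high replicate 1 had a mean Spearman rho across probe sets of 0.973 with the CD133 low arrays and of 0.931 with the other CD133 high arrays. The added hybridisation controls averaged 10.38, 11.29 and 11.04 on CD133 high replicates 1, 2 and 3, against 10.19, 10.51 and 10.22 on the CD133 low arrays. Of the Gapdh control probe sets, the 3' one minus the middle one was −0.13, 0.44 and 0.46 on the CD133 high arrays, against −0.09, −0.09 and −0.07 on the CD133 low arrays. Prom1 itself stood at 6.80, 6.63 and 6.40 in the CD133 high fraction, against 5.49, 5.92 and 6.06 in the CD133 low fraction. The difference of 0.79 (SE 0.26) did not pass either (adjusted p = 0.297 in limma, and 0.125 without CD133 high replicate 1). CD133 high replicate 1, the array nearest to the CD133 low arrays over the genome, had the highest Prom1 value. The arrays of this fraction thus differed in ways that Prom1 did not follow. The main values below are therefore given for each array, and tests also without CD133 high replicate 1.

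No probe set of the 10 genes passed the test between the fractions when all 6 arrays were used. In limma 0 of the 24 probe sets passed an adjusted p of 0.05, whereas 0.182% of all probe sets did, and the smallest adjusted p of a member probe set was 0.315. At an unadjusted p under 0.05 there was 1 of 24, against 15.7% of all probe sets. The fractions did not overlap at 3 of 24 probe sets, or 12.5%, against 20.8% of all probe sets. At the brightest probe sets the median difference of the 10 genes was 0.05, against 0.0013 for all genes, with 6 genes positive and 4 negative and a range of −0.38 to 0.59. The median size of the difference, regardless of sign, was 0.30 for the 10 genes and 0.36 for all genes.

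Without CD133 high replicate 1, 7 of 24 probe sets passed (29.2%), against 21.3% of all probe sets. Of them 5 rose, against 9.5% of all probe sets, and 2 fell, against 11.8%. These 7 were single probe sets of Tgfb1 and Smad2, which fell, and of Tgfb2, Tgfbr2 and Smad7 and both probe sets of Tgfbr3, which rose. At the brightest probe sets 4 of 10 genes passed, against 26.3% of all genes. Leaving out any other single array left 0 member probe sets past the threshold, and over the whole array at most 1 probe set. At 7 of the 10 brightest probe sets CD133 high replicates 2 and 3 deviated from the CD133 low mean in one direction and replicate 1 in the other. The deviation of replicate 1 could be small, as for Tgfb1 (0.05). The share over all genes was not counted, so this pattern cannot be called particular to the 10 genes. With the hybridisation controls as a covariate, 0 of the 10 genes passed at its brightest probe set, and over the whole array 8 probe sets were higher and 61 lower. The difference of 7 of the 10 genes changed sign. Sign changes were not counted over all genes, and the controls were highest on CD133 high replicates 2 and 3, so the covariate partly follows the fraction.

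**Figure D1:**
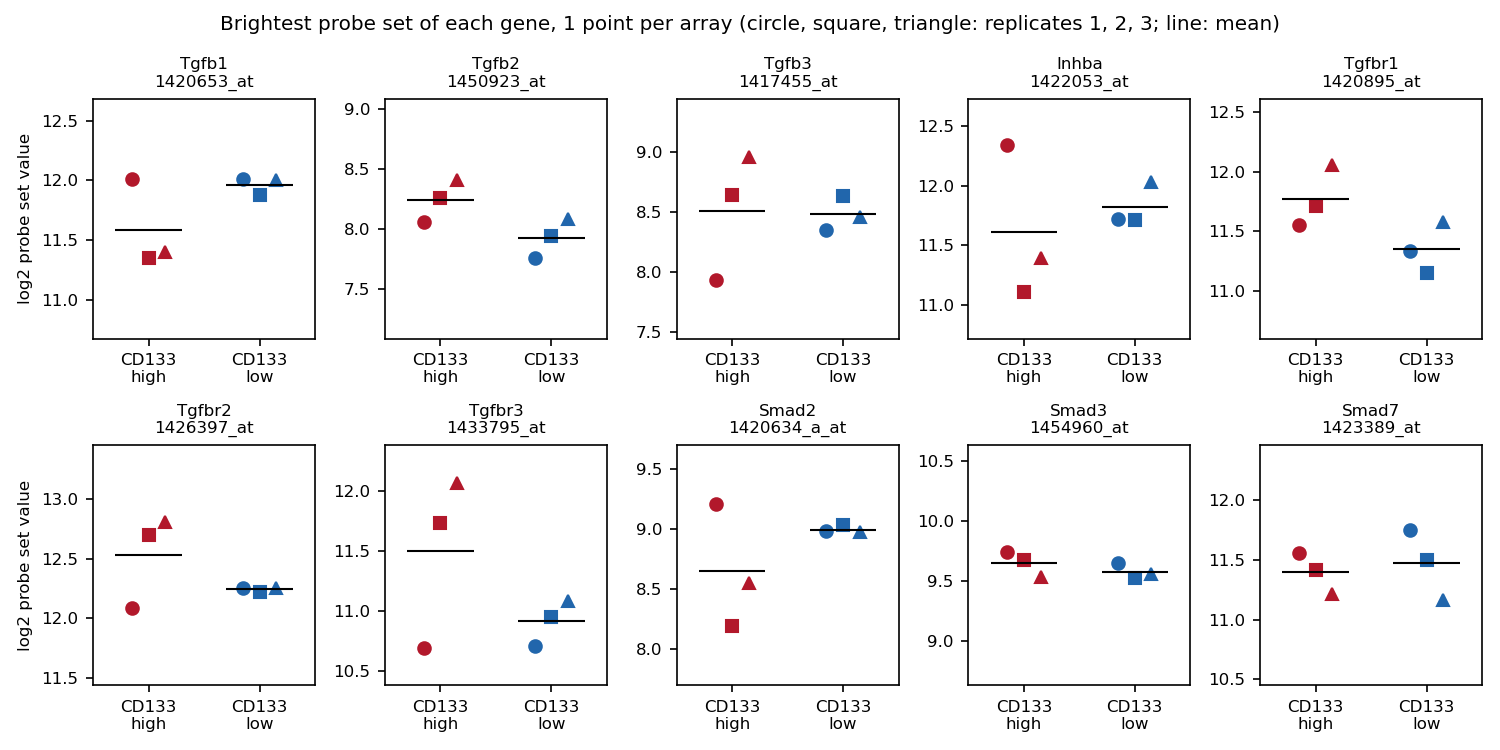
Log2 probe set value (vertical axis, 2 units high in each panel) of the brightest probe set of each gene, CD133 high arrays in red and CD133 low arrays in blue, with circles, squares and triangles for replicates 1, 2 and 3 and a line at the mean. For Tgfb1, Inhba and Smad2 CD133 high replicate 1 lies above the other CD133 high arrays, for Tgfb3, Tgfbr2 and Tgfbr3 below them, and in no panel do the fractions separate fully.

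At their brightest probe sets the ligand genes Tgfb1 and Tgfb2 lay on opposite sides of the CD133 low arrays in CD133 high replicates 2 and 3, and their upstream sequences are shown for that reason. For Tgfb2 this held at 2 of its 4 probe sets. Each is the 250 bases before a RefSeq transcript start, 5' to 3' on the strand of the gene, in build GRCm38.p6. Tgfb1 lies at chr7:25686752-25687001 on the plus strand and Tgfb2 at chr1:186705990-186706239 on the minus strand. Capitals mark matches, on either strand, to the TATA box TATAAA and to the GC box GGGCGG; the other motifs searched, also on both strands, were the cyclic AMP response element TGACGTCA, the AP-1 site TGANTCA and the palindromic Smad binding element GTCTAGAC, which matched neither sequence.
Tgfb1: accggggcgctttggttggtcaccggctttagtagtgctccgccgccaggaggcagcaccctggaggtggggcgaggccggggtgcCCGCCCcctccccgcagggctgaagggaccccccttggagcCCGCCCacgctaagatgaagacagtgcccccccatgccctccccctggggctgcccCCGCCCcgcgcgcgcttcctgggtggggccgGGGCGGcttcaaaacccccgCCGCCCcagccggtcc
Tgfb2: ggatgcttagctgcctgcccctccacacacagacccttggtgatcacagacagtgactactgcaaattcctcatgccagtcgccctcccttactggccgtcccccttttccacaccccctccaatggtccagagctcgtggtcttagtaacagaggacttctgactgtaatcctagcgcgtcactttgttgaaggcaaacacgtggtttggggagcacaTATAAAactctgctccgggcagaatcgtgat
The Tgfb1 window held 5 GC boxes, 0 TATA boxes and 75.2% G and C. That of Tgfb2 held 1 TATA box, 0 GC boxes and 53.6% G and C. Of 32851 such windows in the RefSeq table, 32.7% held a GC box and 12.4% a TATA box. The shares were 6.75% for the AP-1 site, 1.55% for the cyclic AMP response element and 0.167% for the Smad palindrome. These matches describe letters in the window and not binding.

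Tgfb1 encodes the ligand of the family that is made most widely, by tumour cells, platelets and leukocytes alike. At 1420653_at its values were 12.01, 11.35 and 11.41 in the CD133 high fraction, against 12.01, 11.88 and 12.00 in the CD133 low fraction. CD133 high replicate 1 was level with the CD133 low arrays and replicates 2 and 3 lay below all of them. The difference of −0.38 (SE 0.21) had an adjusted p of 0.395 in limma. Without CD133 high replicate 1 Tgfb1 fell by 0.59 (SE 0.10, adjusted p = 0.015). The second probe set, 1445360_at, gave 8.97, 9.06 and 8.72 in the CD133 high fraction, against 9.19, 9.19 and 9.20 in the CD133 low fraction. Here the fractions did not overlap, and the lower value of every CD133 high array had a difference of −0.28 (SE 0.15, adjusted p = 0.382 in limma, and 0.17 without CD133 high replicate 1).

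Most markers of T and natural killer cells and of B cells were lower in all 3 CD133 high arrays than in the CD133 low arrays. Of 10 measured T and natural killer cell markers 5 fell, and of 7 B-cell markers 5 fell, against 0.231% of all genes, with median list differences of −2.12 and −3.01. Those of T cells were Cd5 (−2.30), Cd8b1 (−2.42), Cd3e (−2.34), Cd2 (−1.68) and Cd3g (−2.81). Those of B cells were Fcmr (−3.01), Cd79b (−4.10), Cd79a (−3.06), Cxcr5 (−3.25) and Ms4a1 (−2.81). The SE of these 10 ran over 0.19 to 0.33 and their adjusted p in limma over 0.0114 to 0.0408. The fractions overlapped at Cd247 (−0.25) and Cd4 (0.44) of the first list and at Cd22 (−0.22) and Pax5 (0.07) of the second. The summed linear value of the T and natural killer cell list ran over 1295 to 1890 on the CD133 high arrays and 5772 to 7815 on the CD133 low arrays, and that of the B-cell list over 997 to 1661 on the CD133 high arrays and 5592 to 7373 on the CD133 low arrays. These calls were not lost without CD133 high replicate 1, where 8 of 10 and 5 of 7 fell, against 14.6% of all genes in that fit. Leaving out any other single array left at most 1 probe set called over the whole array. No gene of either list was listed at 0. The median of the T and natural killer cell list was −1.78 in CD133 high replicate 1, −2.06 in replicate 2 and −2.37 in replicate 3. Platelet and megakaryocyte markers had 0 of 8 genes past the threshold, with summed linear values of 9098 to 11277 on the CD133 high arrays and 9136 to 9763 on the CD133 low arrays. These sums rest mostly on the brightest gene, Pf4, with log2 means of 12.86 in the CD133 high and 12.83 in the CD133 low fraction. The 4 platelet markers with the smallest p were Gp1bb (0.92, SE 0.38), Itga2b (−0.40, SE 0.23), Gp9 (0.27, SE 0.26) and Ppbp (0.25, SE 0.27). Without CD133 high replicate 1 Itga2b fell (1 of 8, against 14.6% of all genes). Macrophage and monocyte markers had 0 of 12 past it, with sums of 67940 to 77567 on the CD133 high arrays and 69971 to 74811 on the CD133 low arrays. The 4 with the smallest p were Fcgr1 (−0.56, SE 0.18), Mrc1 (0.58, SE 0.23), C1qb (−0.49, SE 0.24) and Cd68 (−0.64, SE 0.35). Without CD133 high replicate 1, the fit in which Tgfb1 passed, 3 of the 12 fell, against 14.6% of all genes, and the complement gene C1qc rose, against 11.7%. Those that fell were Fcgr1, C1qb and Cd68, a lysosomal protein of macrophages. Cd68 stood at 12.21, 10.93 and 10.97 in the CD133 high fraction, against 12.06, 12.02 and 11.97 in the CD133 low fraction, and fell by 1.06 in that fit (limma, adjusted p = 0.00332). As with Tgfb1 at 1420653_at, replicates 2 and 3 lay below all CD133 low arrays and replicate 1 did not. The epithelial marker Krt18 had this pattern too, at 13.16, 12.40 and 11.88 in the CD133 high fraction, against 12.95, 12.95 and 12.79 in the CD133 low fraction. So did the endothelial marker Emcn, and the pattern was thus not particular to macrophage markers. Its share over all genes was not counted. Some macrophage markers had other patterns: Mrc1 was higher in every CD133 high array and Fcgr1 lower in every one. With all arrays 6 of the 12 differences were positive and 6 negative, with a median of −0.02. The part of these cells in the Tgfb1 values was not tested, and in sorted bulk RNA fewer cells of a type and less RNA per cell cannot be told apart.

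Tgfb2 was read by 4 probe sets, and 3 of them had nearly the same mean, so the choice of the brightest rests on little. That one, 1450923_at, gave 8.06, 8.26 and 8.41 in the CD133 high fraction, against 7.76, 7.94 and 8.08 in the CD133 low fraction. The lowest CD133 high array and the highest CD133 low array were almost level, and the difference was 0.32 (SE 0.18, adjusted p = 0.392 in limma, and 0.112 without CD133 high replicate 1). At 1450922_a_at the values were 7.83, 8.52 and 9.07 in the CD133 high fraction, against 7.52, 7.63 and 7.93 in the CD133 low fraction. This was the member probe set with the smallest p over all 6 arrays, with a difference of 0.78 (SE 0.32, unadjusted p = 0.0466, adjusted p = 0.315 in limma). Without CD133 high replicate 1 it rose by 1.10 (SE 0.22, adjusted p = 0.0228). With array weights, which weigh down arrays that fit their group poorly, it rose by 1.06 (limma, adjusted p = 0.0445), the one member probe set of 24 to pass, against 10.7% of all probe sets. The third, 1423250_a_at, was annotated to the same accession and did not show this, with 8.03, 8.16 and 7.92 in the CD133 high fraction, against 7.92, 8.35 and 8.11 in the CD133 low fraction (difference −0.09, SE 0.18, adjusted p = 0.816 in limma). The remaining probe set, 1438303_at, differed by −0.0042 (SE 0.22). The probe sets of Tgfb2 thus disagreed, and 1 of 4 passed without CD133 high replicate 1.

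Tgfb3, the third TGF-beta isoform, was read by 1417455_at alone, at 7.93, 8.64 and 8.96 in the CD133 high fraction, against 8.35, 8.64 and 8.46 in the CD133 low fraction. CD133 high replicate 1 was the lowest array and replicate 3 the highest, and the difference was 0.03 (SE 0.28, adjusted p = 0.966 in limma). Leaving out replicate 1 gave a difference of 0.32 (SE 0.16, adjusted p = 0.204).

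Inhba encodes the beta A chain of activin A, a ligand that acts through its own receptors on Smad2 and Smad3. At 1422053_at it stood at 12.34, 11.11 and 11.40 in the CD133 high fraction, against 11.72, 11.71 and 12.03 in the CD133 low fraction. Replicate 1 was the highest of all arrays and replicates 2 and 3 the lowest, so that the difference of −0.21 (SE 0.32, adjusted p = 0.758 in limma) averaged values on both sides of the CD133 low arrays. Without replicate 1 the difference was −0.57 (SE 0.15) and its adjusted p of 0.0523 missed the threshold. The other Inhba probe set, 1458291_at, was dim, with 3.13, 6.48 and 2.53 in the CD133 high fraction, against 5.89, 6.09 and 4.52 in the CD133 low fraction (difference −1.45, SE 1.05, adjusted p = 0.492 in limma).

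**Figure D2:**
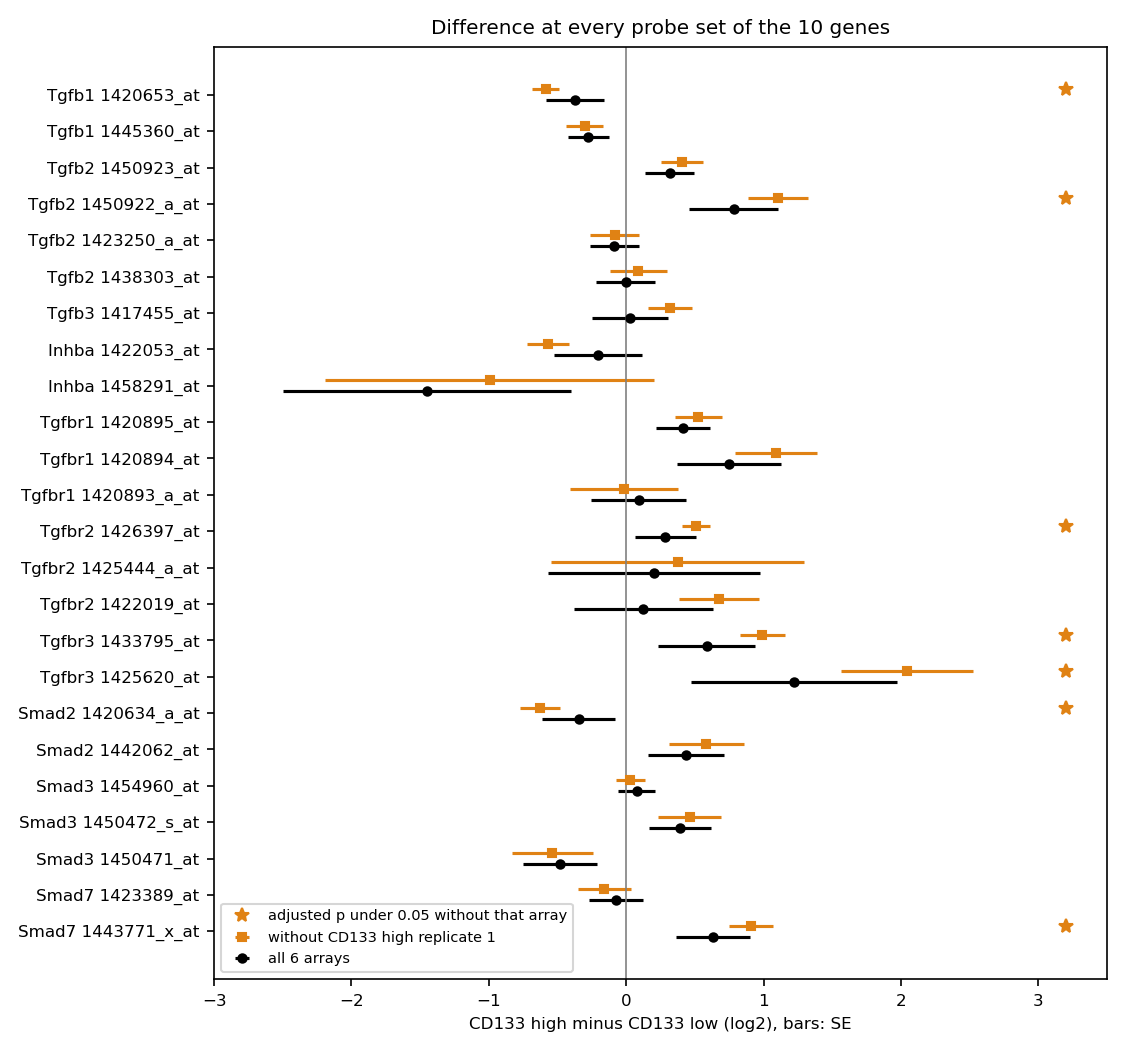
Difference of CD133 high minus CD133 low (log2, horizontal axis, bars are SE from limma) at each of the 24 probe sets, with all 6 arrays as black circles and without CD133 high replicate 1 as orange squares. Stars mark the 7 probe sets with an adjusted p under 0.05 without that array, and no probe set passed with all 6 arrays.

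Of the receptors, Tgfbr1, the type I receptor, had the smallest p of the 10 genes at the brightest probe sets. At 1420895_at it stood at 11.55, 11.71 and 12.06 in the CD133 high fraction, against 11.33, 11.16 and 11.58 in the CD133 low fraction. The lowest CD133 high array lay just under the highest CD133 low array. The difference was 0.42 (SE 0.20, adjusted p = 0.344 in limma). It was positive in all 16 alternatives run, between 0.27 and 0.53, with an adjusted p of 0.0858 to 0.853. Some of these could not change the difference of a bright _at probe set, so their sign is no evidence of stability. With no or a robust variance trend, dim values raised, or dim, _s_at or _x_at probe sets left out, it stayed at 0.42. The probe set 1420894_at gave 6.24, 6.86 and 7.67 in the CD133 high fraction, against 6.34, 5.98 and 6.20 in the CD133 low fraction (difference 0.75, SE 0.38, adjusted p = 0.359 in limma, and 0.053 without CD133 high replicate 1). At 1420893_a_at the difference was 0.09 (SE 0.35), and CD133 high replicate 3, the highest array at the other 2 probe sets, was the lowest.

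The genes whose values over the 6 arrays were most like those of Tgfbr1 at 1420895_at were Lemd3, Pde8a, Ccne2, Setd2 and Kdm5a, with Pearson r between 0.996 and 0.998. They were the top 5 of 10673 genes with a mean of at least 7. Lemd3, an inner nuclear membrane protein known to bind Smad2 and Smad3 and to restrain their signal, stood at 9.92, 10.05 and 10.36 in the CD133 high fraction, against 9.68, 9.53 and 9.95 in the CD133 low fraction. With 6 arrays and so many genes, values this close describe shape only, and the points share the arrays and their normalisation.

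Tgfbr2, the type II receptor that binds TGF-beta, was read at 1426397_at at 12.08, 12.70 and 12.81 in the CD133 high fraction, against 12.26, 12.22 and 12.26 in the CD133 low fraction. The CD133 low arrays had an SD of 0.02, whereas CD133 high replicate 1 lay below them and replicates 2 and 3 above. The difference was 0.29 (SE 0.22, adjusted p = 0.517 in limma), and without replicate 1 Tgfbr2 rose by 0.51 (SE 0.10, adjusted p = 0.0213). Its probe sets 1425444_a_at and 1422019_at were dimmer and varied more, with differences of 0.20 (SE 0.77) and 0.13 (SE 0.51). At 1425444_a_at CD133 high replicates 2 and 3, at 4.79 and 7.99, lay on opposite sides of all the CD133 low arrays.

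Tgfbr3 encodes betaglycan, a co-receptor that presents ligand, TGF-beta 2 above all, to the type II receptor. At 1433795_at its values were 10.69, 11.73 and 12.07 in the CD133 high fraction, against 10.71, 10.95 and 11.08 in the CD133 low fraction. Replicate 1 was the lowest array and replicates 2 and 3 were above all CD133 low arrays. The difference was 0.59 (SE 0.35, adjusted p = 0.42 in limma), and without replicate 1 Tgfbr3 rose by 0.99 (SE 0.16, adjusted p = 0.0141). At the second probe set, 1425620_at, replicates 2 and 3 were again above all CD133 low arrays and replicate 1 among them, with 7.36, 10.49 and 9.14 in the CD133 high fraction, against 8.25, 7.89 and 7.18 in the CD133 low fraction. It differed by 1.22 (SE 0.75, adjusted p = 0.426 in limma), and by 2.04 (SE 0.48, adjusted p = 0.0358) without replicate 1. Tgfbr3 was the one gene with more than 1 probe set in which every probe set passed without that array.

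Fibroblasts and other stromal cells also carry these receptors, and their markers were followed beside them. Of 10 fibroblast markers 0 passed with all arrays, and the list had a median difference of 0.22 and summed linear values of 28844 to 37735 on the CD133 high arrays and 29811 to 30709 on the CD133 low arrays. On CD133 high replicates 1, 2 and 3 its median lay at −0.01, 0.25 and 0.37 against the CD133 low mean. Tgfbr2 and Tgfbr3 had the same array order at their brightest probe sets, but so did Tgfbr1, Tgfb2 and Tgfb3. Of the pathway lists described below, the medians of the latency and activation genes (0.20, 0.25 and 0.35) and of the inhibitors (−0.0034, 0.10 and 0.28) had it too. The medians of the other pathway lists did not. Pdgfra, a growth factor receptor of fibroblasts, stood at 10.78, 11.62 and 11.91 in the CD133 high fraction, against 10.83, 10.86 and 10.85 in the CD133 low fraction (adjusted p = 0.352 in limma). The others of the 4 with the smallest p were Thy1 (−1.16, SE 0.31), a surface glycoprotein shared by fibroblasts and T cells, Lum (0.37, SE 0.23) and Col6a1 (0.24, SE 0.17). Without replicate 1, 3 of the 10 fibroblast markers rose, against 11.7% of all genes, and Thy1 fell, against 14.6%. Of 10 endothelial markers 0 passed, with sums of 2926 to 3360 on the CD133 high arrays and 2588 to 3159 on the CD133 low arrays. The 4 with the smallest p were Egfl7 (0.96, SE 0.35), Emcn (−0.69, SE 0.43), Cdh5 (0.32, SE 0.21) and Tek (0.27, SE 0.20). Without replicate 1 Egfl7 rose and Emcn and Pecam1 fell, 3 of the 10, against 26.3% of all genes. None of these stromal genes was listed at 0, and their part in the receptor values was not tested.

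**Figure D3:**
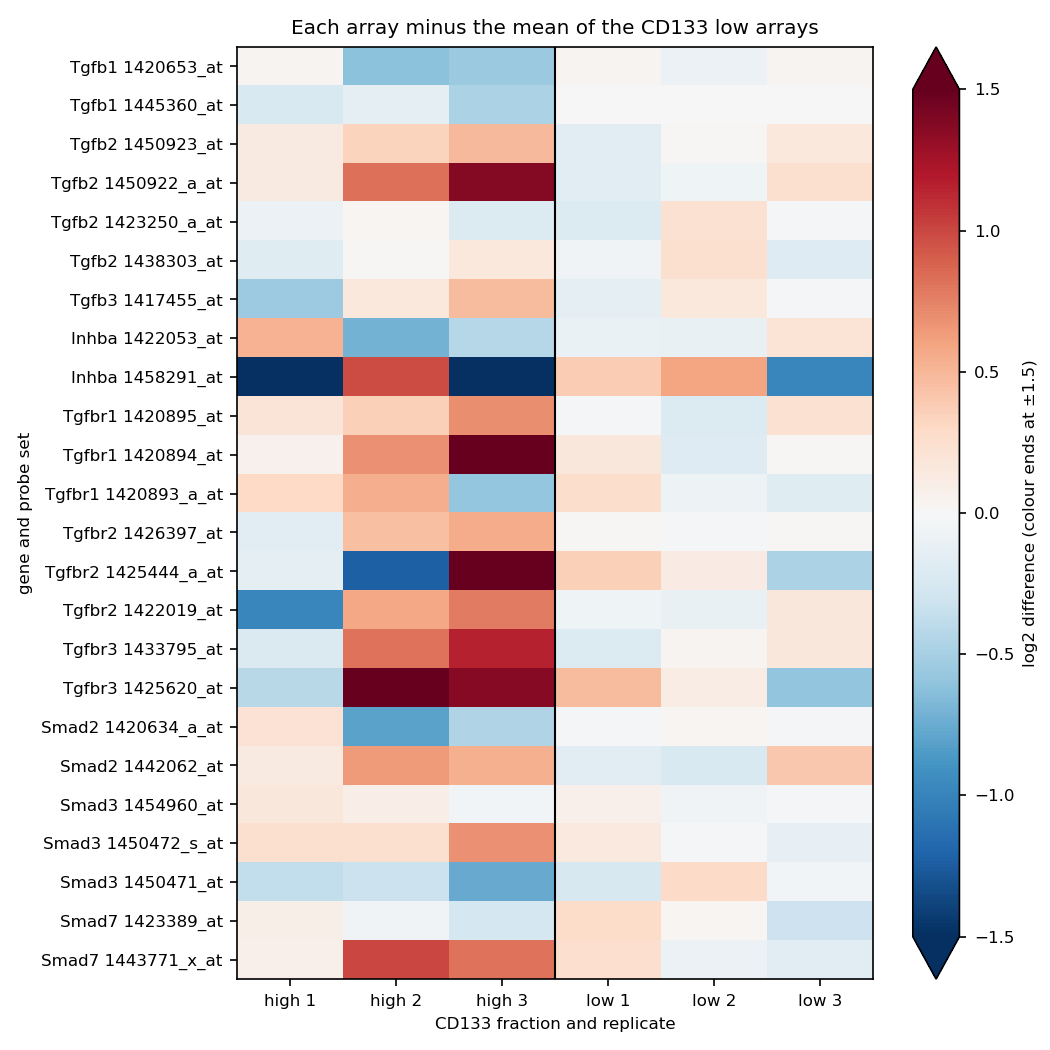
Each array (columns, CD133 high at the left and CD133 low at the right) minus the mean of the CD133 low arrays at each of the 24 probe sets (rows), in log2 units, red above and blue below, with the colour scale ending at ±1.5. The column of CD133 high replicate 1 differs from those of replicates 2 and 3, for instance at Tgfbr3 (−0.22, against 0.82 and 1.16 at 1433795_at) and at Inhba (0.52, against −0.71 and −0.42 at 1422053_at).

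Smad2, a receptor-activated transducer, was read at 1420634_a_at at 9.21, 8.19 and 8.55 in the CD133 high fraction, against 8.98, 9.03 and 8.97 in the CD133 low fraction. The CD133 low arrays had an SD of 0.03, replicate 1 lay above them and replicates 2 and 3 below. The difference was −0.35 (SE 0.26, adjusted p = 0.512 in limma), and without replicate 1 it fell by 0.63 (SE 0.14, adjusted p = 0.0327). The dimmer probe set 1442062_at went the other way, with 6.23, 6.73 and 6.62 in the CD133 high fraction, against 5.93, 5.86 and 6.50 in the CD133 low fraction (difference 0.43, SE 0.28, adjusted p = 0.442 in limma). The 2 probe sets of Smad2 therefore give no common direction, and the mean of both differed by 0.04.

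Smad3, the other receptor-activated transducer, had the narrowest range over the 6 arrays among the 10 brightest probe sets, at 1454960_at. Its values were 9.74, 9.68 and 9.53 in the CD133 high fraction, against 9.65, 9.52 and 9.56 in the CD133 low fraction. The arrays of both fractions were interleaved, and the difference was 0.08 (SE 0.14, adjusted p = 0.788 in limma). The fractions did not overlap at the 2 dimmer probe sets, but in opposite directions. At 1450472_s_at, a probe set of the type that can match several transcripts, the values were 6.58, 6.58 and 7.02 in the CD133 high fraction, against 6.48, 6.31 and 6.21 in the CD133 low fraction (difference 0.39, SE 0.23, adjusted p = 0.408 in limma). At 1450471_at, annotated to the same accession, they were 5.67, 5.72 and 5.29 in the CD133 high fraction, against 5.80, 6.32 and 5.996 in the CD133 low fraction (difference −0.48, SE 0.27, adjusted p = 0.397 in limma).

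Smad7, the feedback inhibitor, stood at 1423389_at at 11.56, 11.41 and 11.21 in the CD133 high fraction, against 11.75, 11.50 and 11.16 in the CD133 low fraction. The CD133 low arrays spanned all CD133 high arrays, and the difference was −0.08 (SE 0.20, adjusted p = 0.86 in limma). At 1443771_x_at, a type of probe set that can cross-hybridise, it stood at 10.55, 11.48 and 11.30 in the CD133 high fraction, against 10.74, 10.39 and 10.31 in the CD133 low fraction. Replicates 2 and 3 were above all CD133 low arrays and replicate 1 among them, with a difference of 0.63 (SE 0.27, adjusted p = 0.324 in limma) that was 0.91 (SE 0.16, adjusted p = 0.0161) without replicate 1. In all, 4 of the 9 genes with several probe sets had differences of both signs.

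The genes around the pathway core were read from 5 lists, of which 59 genes were measured, each at its brightest probe set. None passed the threshold with all 6 arrays in limma, where the smallest adjusted p was 0.123, against 0.253% of all genes. At an unadjusted p under 0.05 there were 8 (13.6%), against 18.2% of all genes, and the fractions did not overlap at 13 (22.0%), against 23.6% of all genes. Without CD133 high replicate 1, 13 of the 59 rose and 11 fell, together 40.7%, against 11.7% higher, 14.6% lower and 26.3% in all for the 18193 genes. CD133 high replicates 2 and 3 are also the arrays with the higher hybridisation controls and Gapdh 3' to middle differences given above, whose part in these counts was not tested.

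Latent TGF-beta is held in the matrix by latency proteins and freed by integrins and proteases. Of 10 measured genes of storage and activation 0 passed, 8 differences were positive and the median was 0.27, against 0.0013 for all genes. The fractions did not overlap for 3 of the 10 genes, against 23.6% of all genes, and in each of the 3 the CD133 high arrays were the higher. Ltbp1, a protein that anchors the latent complex, stood at 9.35, 9.27 and 9.16 in the CD133 high fraction, against 8.84, 8.98 and 8.93 in the CD133 low fraction (difference 0.34, SE 0.14, adjusted p = 0.313 in limma). Furin, the protease that cuts the TGF-beta precursor, stood at 12.22, 12.28 and 12.34 in the CD133 high fraction, against 12.03, 11.94 and 11.89 in the CD133 low fraction (difference 0.32, SE 0.14, adjusted p = 0.325 in limma). Here CD133 high replicate 1 was on the side of replicates 2 and 3. The third was Ltbp3 (difference 0.35, SE 0.14), read at 1438312_s_at, of the type that can match several transcripts. Dropping _s_at and _x_at probe sets, which in this list changes only the reading of Ltbp3, lowered the median to 0.15. The non-overlap of Ltbp3 thus rests on that probe set. Itgav, the alpha V chain of the activating integrins, overlapped (difference 0.45, SE 0.24). Without replicate 1, Itgb8, which encodes a partner chain of Itgav, rose by 0.98 (1 of 10, against 11.7% of all genes) and Nrros, an anchor of latent TGF-beta on macrophages and microglia, fell by 0.93 on the log2 scale (1 of 10, against 14.6% of all genes), with adjusted p in limma of 0.0413 for Itgb8 and 0.00721 for Nrros.

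Of 10 other ligands, receptors and co-receptors, mostly of the activin branch and called activin-branch genes here, 0 passed, with a median of 0.27. Gdf11, a ligand close to myostatin, was lower in every CD133 high array, at 7.88, 7.25 and 7.13, against 8.24, 8.11 and 7.93 in the CD133 low fraction (difference −0.67, SE 0.24, adjusted p = 0.299 in limma). Eng, which encodes the endothelial co-receptor endoglin, and Acvr2a, a type II activin receptor, differed by 0.67 (SE 0.31) and 0.80 (SE 0.40), and the dim Acvr1c by 0.73 (SE 0.40). Without replicate 1, Eng, Acvr2a and Inhbb rose and Gdf11 and Tdgf1 fell, 5 of the 10, against 26.3% of all genes.

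Of 8 other transducers 0 passed, with a median of 0.06. Smad4, the partner of Smad2 and Smad3, was higher in every CD133 high array, at 11.63, 11.92 and 12.12, against 11.24, 11.18 and 11.57 in the CD133 low fraction (difference 0.56, SE 0.19, adjusted p = 0.297 in limma, and 0.0306 without replicate 1). Trim33, a ubiquitin ligase that acts on Smad4, did not overlap either (difference 0.26, SE 0.13). Zfyve9, which brings Smad2 to the receptor, and Map3k7, the kinase TAK1, differed by 0.50 (SE 0.31) and −0.59 (SE 0.39). Without replicate 1, 3 of the 8 passed, against 26.3% of all genes. Smad4 rose by 0.69, whereas Map3k7 fell by 1.04 (limma, adjusted p = 0.0138) and Usp15, a deubiquitinase of the pathway, fell by 0.99 (limma, adjusted p = 0.0156) on the log2 scale.

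Of 13 inhibitors 0 passed, with a median of 0.09, which was 0.029 without CD133 high replicate 3, 0.042 without CD133 low replicate 3 and 0.18 without CD133 high replicate 1. Smurf2, a ubiquitin ligase recruited by Smad7 to the receptors, was higher in every CD133 high array, at 10.03, 10.29 and 10.46, against 9.76, 9.75 and 9.94 in the CD133 low fraction (difference 0.45, SE 0.16, adjusted p = 0.3 in limma). Its relative Smurf1 was not higher in replicate 1, with 8.21, 9.88 and 10.83 in the CD133 high fraction, against 8.40, 8.46 and 8.61 in the CD133 low fraction (difference 1.15, SE 0.60, adjusted p = 0.372 in limma). Smad6, an inhibitor chiefly of the BMP branch, differed by 0.46 (SE 0.19) and the decoy receptor Bambi by −0.47 (SE 0.24). Without replicate 1, 4 of the 13 inhibitors rose, against 11.7% of all genes, and 3 fell, against 14.6%.

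Of 18 measured response genes 0 passed, 12 differences were positive and 6 negative, and the median was 0.09, or −0.0088 without CD133 high replicate 1. Ldlrad4, a TGF-beta induced membrane protein that limits Smad activation, had the smallest p of all pathway genes. It stood at 7.13, 6.74 and 6.75 in the CD133 high fraction, against 7.89, 8.18 and 7.96 in the CD133 low fraction (difference −1.13, SE 0.20, adjusted p = 0.123 in limma, and 0.00729 without replicate 1), and every CD133 high array was lower. Snai2, a transcription factor of the epithelial to mesenchymal transition, stood at 7.10, 7.68 and 7.60 in the CD133 high fraction, against 6.73, 6.83 and 6.99 in the CD133 low fraction (difference 0.61, SE 0.22, adjusted p = 0.3 in limma). Acta2, smooth muscle actin, differed by −0.31 (SE 0.15) and Col1a1, a collagen I chain, by 0.38 (SE 0.25). Without replicate 1, 4 response genes rose, Snai2, Col1a1, Ccn2 and Tagln, and 3 fell, Ldlrad4, Tgfbi and Cdkn1a, in all 7 of 18, against 26.3% of all genes.

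**Figure D4:**
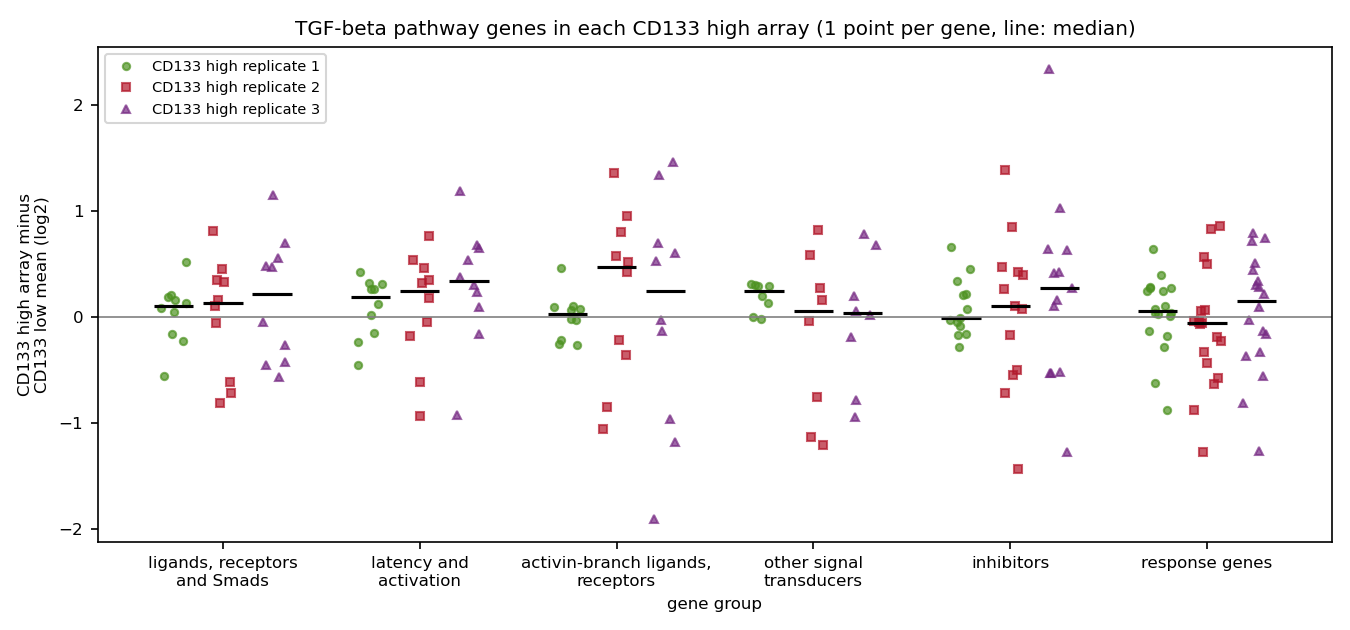
Each CD133 high array minus the mean of the CD133 low arrays (log2, vertical axis) for the genes of each group at their brightest probe sets, 1 point per gene, with circles, squares and triangles for CD133 high replicates 1, 2 and 3 and a line at the median. The points of replicates 2 and 3 spread more widely than those of replicate 1, and the medians of the 6 groups lie between −0.05 and 0.47.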

How the data were processed

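RNA of 3 CD133 high and 3 CD133 low samples was measured on Affymetrix mouse arrays after biotin labelling, per the labels' protocols. The authors deposited log2 probe set values (the log2 scale was judged from the values). The probe summary and normalisation are not stated in the labels or the table. Replicates were numbered in accession order, which pairs no samples. The series text names the 430A 2.0 array, whereas 45101 probe sets were deposited, of which 64 controls were left out. Array medians lay between 6.60 and 6.77, 1158 to 1297 values per array were exactly 0, and precision is limited by the number of arrays. No 2 arrays held equal values in more than 702 probe sets.

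Gene symbols came from the platform annotation, which gives 34945 probe sets 1 symbol and 932 several, and leaves 9160 unnamed here. Each gene was read at the probe set with the highest mean among those it does not share with another gene. For the comparison limma 3.58.1 was run in R 4.3.3 (with the data.table package, version 1.17.8) on the values as deposited, with a variance trend, two-sided, and Benjamini-Hochberg adjustment over 45037 probe sets at a threshold of 0.05. With 3 arrays a fraction exact permutation cannot give a p below 0.1, so it was not used. Summed levels add 2 to the power of each value. Named are all probe sets of the 10 genes and, per list, every gene past the threshold and the 4 with the smallest p. Other list genes that passed without CD133 high replicate 1, and Esrp1, Cd247, Cd4, Cd22 and Pax5, were named after their values were seen. The members and lists were chosen with earlier results of these data known. The fit was tested on simulated data. Upstream sequences are RefSeq's (GRCm38.p6), and 2 are shown.

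Alternatives were quantile normalisation, equal 75th percentiles, values below 5 set to 5, leaving out the dimmest 50% of probe sets, no or a robust variance trend, array weights, hybridisation controls as a covariate, averaging the probe sets of a gene, dropping _s_at and _x_at probe sets, an adjusted p of 0.1, and leaving out each array in turn.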

Additional observations from a re-analysis of the deposited data

How the results depend on the processing

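No probe set of the 10 genes passed with all arrays under quantile normalisation, equal 75th percentiles, values below 5 set to 5, the dimmest 50% left out, either other variance model, the hybridisation controls as a covariate or an adjusted p of 0.1. With array weights 1 did, 1450922_a_at of Tgfb2 (limma, adjusted p = 0.0445). Leaving out 1 array at a time gave 0 to 7 member probe sets and 0 to 4 genes, all of them without CD133 high replicate 1. Over all probe sets it gave 0 to 4277 higher and 0 to 5326 lower. Higher and lower probe sets over the whole array, 7 and 75 in the report, numbered 13 and 144 with equal 75th percentiles, 11 and 164 without the dimmest 50%, 1 and 6 with no variance trend, 13 and 172 with a robust trend, 25 and 170 at an adjusted p of 0.1, and 2133 and 2675 with array weights. With values below 5 set to 5, 31 were lower.

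At the brightest probe sets some differences, none of them past the threshold, changed sign. With the hybridisation controls as a covariate Tgfb1 stood at 0.060, Tgfb3 at −0.53, Inhba at 0.55, Tgfbr2 at −0.11, Tgfbr3 at −0.14, Smad2 at 0.22 and Smad7 at 0.049. With probe sets averaged per gene Smad2 stood at 0.043, Smad3 at −0.0050 and Smad7 at 0.28. With quantile normalisation Smad7 stood at 0.011. Leaving out 1 array at a time, the differences ran from −0.59 to −0.26 for Tgfb1, −0.19 to 0.32 for Tgfb3, −0.57 to 0.047 for Inhba, 0.15 to 0.51 for Tgfbr2, 0.30 to 0.99 for Tgfbr3, −0.63 to −0.12 for Smad2 and −0.23 to 0.064 for Smad7. The sign changes of Tgfb3 came without replicate 2 or 3 of the CD133 high fraction or replicate 1 of the CD133 low fraction, that of Inhba without CD133 high replicate 2, and those of Smad7 without CD133 high replicate 3 or CD133 low replicate 1.

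The median of the 10 genes was 0.14 with array weights, 0.11 with the covariate, 0.12 with averaged probe sets and 0.043 to 0.18 leaving out 1 array. The median of the latency and activation genes was 0.15 with averaged probe sets or without _s_at and _x_at probe sets. That of activin-branch genes was 0.054 with the covariate, 0.079 with averaged probe sets and 0.10 to 0.36 leaving out 1 array, that of other transducers 0.28 with the covariate, that of inhibitors 0.19 with averaged probe sets and 0.029 to 0.18 leaving out 1 array, and that of response genes −0.0088 to 0.11 leaving out 1 array. With array weights 1 activin-branch gene, 1 transducer, 3 inhibitors and 1 response gene passed at their brightest probe sets. Of all probe sets 10.7% passed with these weights, and the share over all genes, the like unit, was not counted. Leaving out 1 array, 0 to 2 latency genes, 0 to 5 activin-branch genes, 0 to 3 transducers, 0 to 7 inhibitors and 0 to 7 response genes passed. In each list genes passed only without CD133 high replicate 1, where 26.3% of all genes did. The cause of these shifts was not tested.

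No paired analysis was possible because the labels number no replicates. Exact zeros and dim values limit the dimmer probe sets, and 3 arrays a fraction limit all of them.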
